A study of Rattus norvegicus with 6 samples.

Results

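The 200 circRNA probes with the strongest signal in normoxic rat lung were followed across 6 one-colour arrays. They were chosen by measured values: each probe's log2 processed signal, taken relative to the array's own 75th percentile over non-control spots, was averaged over the 3 normoxia arrays, and the 200 highest of 14145 circRNA probes were kept. Hypoxia arrays had no part in the choice. All rats were 6-week-old males. The 3 hypoxia samples came from rats kept 21 days in 10% oxygen, an exposure used to raise pulmonary arterial pressure, and the 3 normoxia samples from rats kept in normal air for as long. Whole lung, perfused with buffered saline, was used, so fewer cells of a type and less of a circRNA per cell cannot be told apart. Total RNA was digested with RNase R before labelling with Cy3. Whether every sample is a separate animal is not stated, and p-values below reflect only the scatter among the samples, which may be technical.

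Circular RNAs are made when a downstream splice donor joins an upstream acceptor of the same transcript, usually from exons of protein-coding genes. With no free ends they resist exonucleases such as RNase R and outlast most linear messengers in the cell. Some are present well above the linear transcripts of their host genes, and a few are known to bind microRNAs or proteins, but most have no known function.

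The order of the probes is an order of signals. How brightly a spot binds its target depends on the probe's sequence as well as on the amount of the circRNA, so the chosen probes are called the brightest here and not the most abundant. The files give neither the probe sequences nor the host genes of the identifiers, and no roles or sequences are therefore described. The tissue label could not be checked against lung: of 24 marker genes listed for lung, vessel, blood and liver cells, only Cyp2e1, a cytochrome P450 of the liver list that lung also expresses, had a probe. Its spots were mostly well above background on all 6 arrays.

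Every one of the 200 probes was well above background on all 6 arrays and none was saturated. A single spot, on normoxia 1, carried an outlier flag. Over the arrays, between 11287 and 12266 of all 14145 circRNA probes were well above background, and the arrays had a 75th percentile of 92.6 to 171 intensity units. The median of the 200 probes was 4.53, 4.75 and 4.62 on normoxia 1, 2 and 3, and 4.50, 4.66 and 4.61 on hypoxia 1, 2 and 3, on the log2 scale relative to the 75th percentile. The groups overlapped in this median. The median of all circRNA probes was between -1.43 and -1.35.

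ASCRPR003948 was the brightest probe on every array. Its log2 level was 10.80, 10.40 and 11.35 in normoxia and 9.93, 10.33 and 10.57 in hypoxia, with 10.85 ± 0.48 and 10.28 ± 0.33 as group values (SD, n = 3). The highest hypoxia array lay above the lowest normoxia array, so the groups overlapped. ASCRPR013743 came next, at 9.72, 10.02 and 10.41 in normoxia and 9.75, 10.07 and 10.24 in hypoxia. ASCRPR011276 followed, at 9.43, 9.04 and 9.49 in normoxia and 9.20, 9.18 and 9.51 in hypoxia. Neither of these probes differed between groups beyond its spread, with differences of -0.03 (SE 0.23) and -0.02 (SE 0.20). After them the levels dropped by more than 1 log2 unit to ASCRPR007438, at 7.85, 6.95 and 7.91 in normoxia and 6.60, 6.70 and 6.74 in hypoxia. Here all 3 hypoxia arrays were below all 3 normoxia arrays. ASCRPR004513 had 7.17, 7.64 and 7.29 in normoxia and 7.17, 7.87 and 7.36 in hypoxia, which overlap. Its level in normoxia (7.37 ± 0.25, SD, n = 3) did not differ beyond the spread from that of ASCRPR007438 (7.57 ± 0.54, SD, n = 3).

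From there the levels declined in small steps. The edge of the list fell in such a step: the last probe kept had a normoxia mean of 3.85 and the first left out had 3.84, about 14.4 and 14.3 times the 75th percentile. Each of these probes was among an array's own 200 brightest on 2 of the 6 arrays.

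The 200 probes held 40.5%, 39.3% and 45.6% of the summed circRNA signal on normoxia 1, 2 and 3, and 36.0%, 37.5% and 40.6% on hypoxia 1, 2 and 3. The normoxia mean of 41.8% ± 3.35 and the hypoxia mean of 38.0% ± 2.35 (SD, n = 3) differ by 3.76 percentage points, but the choice on normoxia arrays favours the first, so this difference is given with no test. Chosen on all 6 arrays instead, 200 probes gave a difference of -2.75, and chosen on the hypoxia arrays -1.78. Much of the share sat at the top of the list. ASCRPR003948 alone held from 4.27% to 10.3% of the circRNA signal on an array, ASCRPR013743 from 3.45% to 5.37% and ASCRPR011276 from 2.11% to 3.00%. The 10 first members together held 18.6% in normoxia and 15.4% in hypoxia, ranks 11 to 50 held 9.37% and 8.07%, ranks 51 to 100 held 6.25% and 6.38%, and ranks 101 to 200 held 7.62% and 8.16%. The next 200 probes added 9.12% and 9.53%.

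A measure that treats both groups alike is the share held by each array's own brightest probes. Its 200 brightest held 43.4%, 41.9% and 45.8% on the normoxia arrays and 38.3%, 43.3% and 41.9% on the hypoxia arrays, which overlap (difference -2.48 percentage points, two-sided exact permutation p = 0.40, 0.50 after Benjamini-Hochberg adjustment over 5 list sizes). The brightest 50 held 28.9% ± 3.54 and 25.2% ± 1.60 (SD, n = 3, exact permutation p = 0.20, adjusted 0.33). The brightest 10 held 18.9% ± 3.60 and 15.6% ± 1.74 (SD, n = 3, exact permutation p = 0.20, adjusted 0.33). The brightest probe alone held 7.67% ± 2.48 and 5.10% ± 1.01 (SD, n = 3, exact permutation p = 0.20, adjusted 0.33), and the brightest 1000 held 66.9% ± 0.84 and 66.0% ± 2.52 (SD, n = 3, exact permutation p = 0.70, adjusted 0.70). With 3 arrays against 3 no p can fall below 0.10. None of the 5 differences passed the test. Taken within same-numbered pairs of arrays, the shares of the brightest 1, 10 and 50 probes were lower in hypoxia in all 3 pairs, and those of the brightest 200 and 1000 in 2 of 3, with pair 2 higher. An exact sign-flip test over the pairs gave p = 0.25 for each of the first 3 sizes (adjusted 0.42 over the 5 sizes), the smallest p that 3 pairs allow.

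In rank, most of the list held in arrays that had no part in choosing it. Of the 200 probes, 166 (83%) were also among the 200 brightest of the hypoxia mean, 197 were among its 400 brightest, and the lowest stood at rank 503. In all, 145 of the 200 stood within 50 places of their normoxia rank and 59 within 10 places. The first 10 and all 40 probes of ranks 11 to 50 were in the hypoxia list, as were 48 of the 50 of ranks 51 to 100 and 68 of the 100 of ranks 101 to 200. A place in the list depends on the distance to its edge, so these counts do not measure how far a probe moved: the probes of ranks 21, 23 and 24 stood at 136, 162 and 149 in hypoxia and are counted as kept. Of the 34 probes that took the vacated places in hypoxia, 23 came from the next 200 of the normoxia order. The dimmest of them stood at rank 775 there.

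Single arrays shared fewer of their brightest probes than the group means did in most pairs, inside a group as well as between groups. The members found among an array's own 200 brightest numbered 169, 149 and 184 on the normoxia arrays and 166, 131 and 162 on the hypoxia arrays, and 99 were found on all 6. Pairs of normoxia arrays shared between 127 and 162 of their 200 brightest probes, pairs of hypoxia arrays between 119 and 156, and arrays of different groups between 107 and 175. The largest overlap of any pair was between normoxia 2 and hypoxia 2 (175 probes), and the smallest was between normoxia 1 and hypoxia 2 (107 probes). Over the 200 members, Spearman's rho between arrays ran from 0.45 to 0.78 within normoxia, from 0.73 to 0.91 within hypoxia and from 0.35 to 0.95 between groups. These are descriptions over probes of the same slide. The choice was also made on 2 normoxia arrays and looked up on the other. Of its 200 probes, 150 were among the 200 brightest of normoxia 1 when that array was left out, against 151 to 174 on the hypoxia arrays. With normoxia 2 left out 138 were found on it, against 118 to 156 on the hypoxia arrays. With normoxia 3 left out 177 were found on it, against 127 to 164.

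A set of 12 members accounted for the widest spread inside normoxia, 4-fold or more between the highest and lowest array. They were singled out for that spread after their values had been seen and stood at ranks 48 to 196. On all 12, normoxia 1 was the lowest and normoxia 2 the highest of the normoxia arrays. The hypoxia arrays, which had no part in singling them out, showed the same order by number on all 12, with hypoxia 1 lowest and hypoxia 2 highest. That hypoxia order was seen in 60 of the 200 members. It was seen in 56 of the 61 members with normoxia 1 lowest and normoxia 2 highest, so it was not particular to the 12. ASCRPR007196 had the largest spread, with 1.45, 5.97 and 4.18 on normoxia 1, 2 and 3 and 4.07, 6.07 and 5.29 on hypoxia 1, 2 and 3. The median of the 12 was 2.57, 5.71 and 4.54 in normoxia and 4.29, 6.02 and 5.40 in hypoxia, and their median rank ran from 615 on normoxia 1 to 32 on hypoxia 2. Together they held 0.32% of the circRNA signal on normoxia 1 and 2.92% on hypoxia 2. Their groups overlapped on all 12, and their lowest unadjusted limma p, with no block in the fit, was 0.179.

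A positive control probe, eQC-41, varied along with these probes. It was taken from earlier work on these data, where it had followed the main axis of the arrays. Its mean log2 signal, not scaled to the percentile, was 5.48, 10.7 and 8.14 on normoxia 1, 2 and 3 and 9.02, 11.1 and 9.50 on hypoxia 1, 2 and 3. The 12 members were singled out on the same normoxia arrays along which this control varies, so that they follow it is largely built in. Among all 200 members 21 (10.5%) had a Pearson's r above 0.9 with it over the 6 arrays, against 5.86% of the 12024 circRNA probes tested and 14% of the next 200 by normoxia level. An r below -0.9 was found for 11 members (5.5%), against 8.35% of all probes tested and 7% of the next 200. These shares are descriptions over probes of the same 6 arrays. The part of this axis in the differences between groups was not tested.

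No member passed the adjusted threshold for a difference between hypoxia and normoxia. All 200 were tested, within a limma fit over 12024 circRNA probes with Benjamini-Hochberg adjustment at 0.05, and the lowest adjusted p among them was 0.31. Over all probes tested the adjusted threshold was passed by 0.00832% in the higher and 0.0665% in the lower direction, so a count of 0 among 200 is near that background. Without adjustment 29 members had a limma p under 0.05, 8 higher and 21 lower, against 694 higher and 1013 lower of all 12024. Because normoxia values chose the list, and a chance high value there makes a later fall more likely, the counts of lower members are descriptions from which nothing is read.

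By the looser rule, an unadjusted p under 0.05 with a change of at least 1.5-fold, 2 members were higher and 14 lower in hypoxia (1% and 7%). The background of this rule was 3.43% higher and 6.12% lower. That background depended on how spot background was treated. With normexp 1% of members were higher and 6.5% lower, against 0.582% and 1.12% of all probes. On uncorrected spot medians the shares were 1.5% and 6.5%, against 1.31% and 2.35%. On deposited values they were 1% and 10%, against 1.06% and 2.10%. On the main values the next 200 probes by normoxia level gave 2 higher and 19 lower. On all 14 lower members normoxia 2 was the lowest normoxia array, and on 5 of them it was at least 2-fold below each of the other normoxia arrays. Among all 200 members normoxia 2 was the lowest normoxia array on 81. Without normoxia 2 the rule counted 12 higher and 29 lower members (6% and 14.5%), against 7.91% and 12.5% of all probes in that fit. The adjusted threshold was then passed by 4 members, all lower, against 0.258% of all probes in that direction. Without normoxia 3 the rule counted 1 higher and 8 lower (0.5% and 4%), against 2.30% and 3.50% of all probes. All normoxia arrays and hypoxia 1 lay in row 1 of the slide. Within that row 1 member was higher and 7 lower (0.5% and 3.5%), against 1.54% and 2.49% of all probes. With slide row as a block 2 were higher and 10 lower (1% and 5%), against 2.49% and 3.62%. Row 1 holds a single hypoxia array, so both row fits rest on hypoxia 1.

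Groups that do not overlap were seen for 19 members in the higher direction (9.5%, background 9.8%) and 24 in the lower (12%, background 10.7%). The replicate numbers 1 to 3 appear in both groups, and arrays of the same number deviated together over the 200 members, with correlations of 0.67, 0.68 and 0.36. With the number as a block, 0 members were higher and 5 lower at an adjusted limma p under 0.05, where the background was 1.54% and 1.63%. These 5 stood at ranks 21, 23, 24, 104 and 110, with log2 changes from -1.73 to -1.48. The probe of rank 23, with the largest of these changes, is the member whose spot on normoxia 1 carried the outlier flag. On quantile-normalized values the block left 0 members past the threshold, against 0.790% of all probes. Without pair 3 in the block none passed, against 0.0582% of all probes. Without pair 2 there were 16, with 6 higher and 10 lower (3% and 5%), against 1.93% and 2.39%. Under the looser rule the block gave 14 higher and 15 lower members (7% and 7.5%), against 6.89% and 8.46% of all probes. The 14 higher included all 12 members with the widest spread in normoxia. Their unadjusted limma p with the block ran from 0.0042 to 0.030, and their log2 changes from 0.70 to 1.28.

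The size of the changes was small on most members. The log2 change had a median of -0.04 over the 200 members and -0.02 over all probes tested, with quartiles of -0.28 and 0.20 in the members. In 168 of them (84%) the change was under 1.5-fold, as in 83.8% of all probes tested. It was 2-fold or more in 13 members, 5 of them higher and 8 lower, and the 5 higher ones all belonged to the 12 members with the widest spread in normoxia. That is 6.5% of the members, against 3.85% of all probes tested, and since the choice of the list and the spread between arrays both bear on it, nothing is read from it. The SD between hypoxia arrays was 0.24 log2 units in the median member and 0.22 in the median probe tested.

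By rank, 8 of the first 10 members and 30 of the 40 of ranks 11 to 50 were lower in the hypoxia mean. Further down, 26 of 50 and 47 of 100 were lower. Among all probes tested 52.2% were lower. In ranks 11 to 50 the median change was -0.20, and 10 had an unadjusted limma p under 0.05, all of them lower, where 8.42% of all probes tested were lower and 5.77% higher at that threshold. The median change was -0.17 in the first 10, -0.0027 in ranks 51 to 100 and 0.03 in ranks 101 to 200. The count of lower probes in ranks 11 to 50 was smaller under other choices of the list. With these ranks taken over all 6 arrays, 3 were lower and 1 higher at an unadjusted limma p under 0.05. With these ranks taken over the hypoxia arrays, 0 were lower and 1 higher at that threshold. When ranks 11 to 50 were taken over all 6 arrays 24 of 40 were lower with a median of -0.04, and when they were taken over the hypoxia arrays 20 of 40 were lower with a median of 0.01. For the first 10 the counts under those choices were 8 and 7, for ranks 51 to 100 they were 24 and 16 of 50, and for ranks 101 to 200 they were 39 and 35 of 100. The medians from the first 10 to ranks 101 to 200 were -0.17, -0.04, 0.06 and 0.12 over all 6 arrays, and -0.05, 0.01, 0.16 and 0.18 over the hypoxia arrays. Under each choice a smaller share was lower in ranks 51 to 100 and in ranks 101 to 200 than in the first 10 or in ranks 11 to 50. The list over all 6 arrays shared 184 probes with the members, and the list over the hypoxia arrays 166. These choices therefore do not repeat the pattern independently, and it was not tested.

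Of the members named for their change, ASCRPR011000 had the largest difference. It stood at 6.64, 5.001 and 6.33 on the normoxia arrays and at 4.58, 4.30 and 4.23 on the hypoxia arrays. All hypoxia arrays were below all normoxia arrays, but normoxia 2 lay nearer to hypoxia 1 than to the other normoxia arrays. The difference was -1.62 (SE 0.41, limma adjusted p = 0.31), and the threshold was passed once the replicate number entered as a block (limma adjusted p = 0.044) and without normoxia 2 (limma adjusted p = 0.039). With the block on quantile-normalized values the threshold was missed (limma adjusted p = 0.051). Its rank went from 21 in normoxia to 136 in hypoxia. ASCRPR008343 had 5.80, 5.38 and 5.76 in normoxia and 4.72, 4.89 and 5.10 in hypoxia, a difference of -0.74 (SE 0.19, limma adjusted p = 0.32). In the other direction ASCRPR009171 had 3.82, 4.07 and 3.87 in normoxia and 4.47, 4.60 and 4.54 in hypoxia, with tight groups that lay 0.62 apart (SE 0.16, limma adjusted p = 0.31). ASCRPR010643 had 5.10, 5.76 and 5.05 in normoxia and 5.88, 6.38 and 5.99 in hypoxia, a difference of 0.78 (SE 0.25, limma adjusted p = 0.32). On both probes the hypoxia arrays were all above the normoxia arrays. Among the 5 brightest, ASCRPR007438 had a difference of -0.89 (SE 0.28, limma adjusted p = 0.32) and ASCRPR003948 one of -0.57 (SE 0.29, limma adjusted p = 0.39).

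Some bright probes had neighbouring identifier numbers, which the rule did not use. Among the 200 members 12 pairs had consecutive numbers, involving 22 probes, against 4 pairs among the next 200 probes. Whether such probes share a host gene or sequence is not stated. Each was counted as a separate member throughout, so counts that hold both probes of a pair may not be counts of independent circRNAs. The members of a consecutive pair differed in their log2 change by 0.17 in the median, against 0.39 over all pairs of members. Over the 10255 consecutive pairs of tested probes the median was 0.38. In 9 of the 12 pairs of members both changes had the same sign, a count for which no background was computed. The closest pair stood at ranks 104 and 110. Its probes had 5.20, 3.43 and 5.03 against 5.15, 3.31 and 4.97 on the normoxia arrays, and 3.27, 2.82 and 3.10 against 3.19, 2.73 and 3.07 on the hypoxia arrays. Both were among the 5 called with the replicate block. Other pairs did not move together. The probes of ranks 31 and 87 also had consecutive numbers, and their changes were -0.03 and -1.46.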

How the data were processed

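Per the file headers, Agilent Feature Extraction 11.0.1.1 gave the spot intensity values and corrected each array alone for background and spatial trend. The deposited 0 or 1 flags mark spots above background, saturated or outlying. The authors also deposited log2 values, in columns with medians of 6.09, 6.08, 6.09, 6.10, 6.08 and 6.08 (normoxia 1 to 3, hypoxia 1 to 3). Across circRNA probes they followed the spot medians of the same array in the same direction (Spearman's rho from 0.998); background treatment and offset are unknown. The submitters' processing notes name limma without a role. Each circRNA probe has 1 spot. Main values were log2 processed signal minus the array's 75th percentile over non-control spots. Probes well above background on at least 3 of 6 arrays were tested with lmFit and eBayes (limma 3.58.1 under R 4.3.3, files read with version 1.17.8 of data.table), two-sided; a count model was not used. Shares are sums of linear signal in percent. The fit was tested on simulated data.

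Named are the 5 brightest members and up to 2 per direction whose groups do not overlap, by adjusted p and then by unadjusted p at 1.5-fold or more. Members, lists and rules were chosen with earlier results of these data known. Deviations of same-numbered arrays from their group means correlated by 0.55, 0.71 and 0.21 over all probes tested, so the numbers were taken as pairs. The labels do not say what a number marks, and since the values themselves gave the pairing, blocked p-values may be too small. All arrays share 1 slide, so slide row stood in for slide as a block. Array number limits the precision. Alternatives covered background, normalization, filter, prior, deposited values, slide row, block, choice and size of the list and each array left out.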

Additional observations from a re-analysis of the deposited data

How the results depend on the processing

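The blocked fits on quantile-normalized and deposited values, the blocked fits without a pair, the sign-flip test of shares within pairs, and every alternative for ranks 11 to 50 were added after seeing the data. The count of 0 members past the adjusted threshold became 5 with the replicate block, stayed 0 with the block on quantile-normalized values and was 6 with the block on deposited values. These 6 were 0.5% higher and 2.5% lower, against 0.898% and 0.424% of all probes. In the block without pairs 1 and 2 the count was 3 and 16. The 3 were 0% higher and 1.5% lower, against 1.83% and 1.55% of all probes. In a list of 500 it was 1 (0.2% lower, against 0.0665% of all probes). The count ran from 0 to 4 with 1 array left out. The looser count of 16 became 29 with the replicate block, 33 with the block on quantile-normalized values, 39 with the block on deposited values, 21, 50 and 30 in the block without pairs 1, 2 and 3, 8 in slide row 1 alone and 9 to 41 with 1 array left out. The median change of -0.04 became 0.12 when the members were chosen on the hypoxia arrays. Normexp with an offset of 50 shifted the median of all probes tested to 0.10 and left that of the members at -0.04. The 83% of members kept in the hypoxia list ran from 75% to 91% over 12 alternatives. The difference in the share held by the members ran from -6.34 to -1.37 percentage points over 12, each within the SD between arrays (2.90) of the reported -3.76, and that of each array's own brightest from -3.65 to -0.16 over 12 (exact permutation p from 0.20 to 0.90). In ranks 11 to 50 the median was -0.51 in slide row 1 and with the row as a block, which rest on hypoxia 1. The sign turned for 3 of the 5 brightest probes, none past the threshold under any alternative. ASCRPR013743 had 0.057 in uncorrected spot medians, 0.13 in deposited values with or without the replicate block and 0.04 in the block without pair 3. ASCRPR011276 had 0.027 in uncorrected spot medians and 0.078 in the block without pair 1. ASCRPR004513 had -0.11 in deposited values with or without the block and -0.20 in both row fits. With 1 array left out they ran from -0.19 to 0.15, -0.16 to 0.062 and -0.11 to 0.24. The other 6 named probes kept their direction, except that quantile normalization gave the brightest probe a change of 0, as its rank of 1 on every array fixes. With the block ASCRPR011000 gained its call (limma adjusted p = 0.044; 0.014 to 0.98 over its alternatives), ASCRPR010643 did so on deposited values (0.047) and ASCRPR007438 without pair 2 (0.034).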
